A study of Homo sapiens with 9 samples.

Results

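The DNA replication machinery was followed through 55 genes. They were chosen by name, for their place in origin licensing, the replicative helicase, the DNA polymerases, clamp loading or the building of chromatin behind the fork. Each of the 55 names was found once among the 61552 genes listed in every library, and 55 of 55 passed the filter on low values, beside 16569 genes in all. The cells were MDA-MB-231, an established human triple-negative breast cancer line of unmodified genotype. They were kept for 24 h without 2-DG (0 mM, the control, which received phosphate-buffered saline per the study's methods), with 10 mM 2-DG or with 20 mM 2-DG, and RNA was sequenced in 3 libraries per group. 2-DG is a glucose analogue that is phosphorylated in the cell and then blocks glycolysis. The comparisons ask how these cells' transcripts differ with 2-DG. Neither glycolysis nor any other action of 2-DG was measured in these libraries. The study's methods speak of 3 sample replicates per condition, and neither they nor the labels say whether these were separate cultures, so p-values measure the spread between libraries, which may be technical.

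Replication starts where the origin recognition complex marks DNA and, with CDC6 and CDT1, loads the MCM helicase as an inactive ring. Kinases and helper factors then turn the ring into a running helicase, and polymerases, the sliding clamp, nucleases and a ligase copy both strands while chromatin is rebuilt behind the fork. Many of these genes are transcribed in waves through the cell cycle under E2F factors, and their RNA is most abundant in dividing cells.

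Levels are given in FPKM, which is scaled by gene length and by the library's total, so that levels of different genes are compared per length. Such comparisons depend on the length used for each gene, and the annotation behind those lengths is not given. Whole reads could be recovered from the FPKM values, and the totals counted on genes lay between 30974968 and 40843638 per library. Of the 55 members, 52 had at least 100 reads in every library. RNASEH2A was the least covered, with as few as 2 reads in a library. Differences are log2 fold changes on the log2(FPKM + 1) scale, which makes the change of weakly expressed genes look smaller, and were tested with limma across the 16569 genes, with Benjamini-Hochberg adjustment over them. A member is said to have fallen where its adjusted p was under 0.05.

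The cells' identity was looked at through markers. VIM had 285 ± 28.8 (SD, n = 3) FPKM in the control, AXL 117 ± 8.15 (SD, n = 3) and CD44 69.8 ± 3.94 (SD, n = 3), while SPARC, the other gene on that mesenchymal list, was near 0 at 0.0774 ± 0.0727 (SD, n = 3) FPKM. Of 6 luminal genes, listed as low in this line, ESR1, PGR and CDH1 averaged 0.0034, 0.014 and 0.365 FPKM in the control, whereas ERBB2, EPCAM and GATA3 averaged 8.81, 3.75 and 2.03 FPKM. Of the 2 blood markers, PTPRC was the more abundant, and their summed level was 0.0276, 0.0327 and 0.0286 FPKM without 2-DG, 0.00621, 0 and 0.0109 at 10 mM and 0.00352, 0.00274 and 0.0165 at 20 mM 2-DG. The 2 endothelial markers, led by PECAM1 and with CDH5 at or near 0, summed to 1.44, 1.79 and 1.95 FPKM without 2-DG, 1.15, 1.43 and 1.1 at 10 mM and 0.826, 1.05 and 0.867 at 20 mM 2-DG. The luminal list summed to 16.2, 14.5 and 14.3 FPKM without 2-DG, 11.4, 9.93 and 11.4 at 10 mM and 9.63, 10.2 and 10.2 at 20 mM 2-DG. The blood, endothelial and luminal sums were lower in every treated library than in every control library. The blood sums were near the floor, as 1 read per kb stands for 0.0245 to 0.0323 FPKM, and PTPRC and CD3E did not pass the filter on low values. The mesenchymal list summed to 480, 453 and 483 FPKM without 2-DG, 426, 456 and 482 at 10 mM and 420, 442 and 435 at 20 mM. It thus overlapped at 10 mM and lay below the control at 20 mM. Of its genes, CD44 fell at 20 mM (log2 fold change -0.30, adjusted p = 0.00828 from limma), and VIM, AXL and SPARC did not pass. The part of these marker differences in the results below was not tested.

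The replication genes were lower as a group in 2-DG. Summed over the 55 genes, the level was 1180, 1150 and 1120 FPKM in the control libraries, 627, 672 and 680 at 10 mM and 581, 603 and 599 at 20 mM 2-DG. The control libraries thus stood well above the treated ones, and every 20 mM library lay below every 10 mM library. At 10 mM 2-DG 47 of 55 members fell, where 17.5% of all genes tested were lower, and 0 members rose, where 12.1% of all genes were higher. At 20 mM 2-DG 49 of 55 fell, where 21.6% of all genes were lower, and 0 rose, where 15.4% were higher. At an unadjusted p under 0.05, 49 members (40.4% of all genes) differed from the control at 10 mM and 51 (46% of all genes) at 20 mM. Limma-voom on the recovered reads called 48 members lower at 10 mM (18.3% of all genes) and 49 at 20 mM (22.1% of all genes). The members' median log2 fold change was -0.72 with the lower dose and -0.84 with the higher, beside -0.01 and -0.02 over all genes tested. The libraries also differed in other ways whose part was not tested. The 10 most abundant genes held 8.55%, 7.97% and 8.51% of reads in the control, 8.63%, 9.44% and 10.4% with the lower dose and 9.29%, 9.33% and 9.08% with the higher, more in each treated library than in each control library. The share of mitochondrial genes overlapped between groups and was highest, at 9.75%, in 10 mM library 3. Both doses were compared with the same 3 control libraries, so the values of the doses are not independent of each other. In bulk RNA, fewer cells in S phase and less of these transcripts per cell cannot be told apart.

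On the ratio of mean FPKM, which has no pseudocount, the median member stood at 57.5% of its control level at 10 mM and at 52.3% at 20 mM 2-DG. With the DEG rule (log2 fold change beyond 1 either way, unadjusted p under 0.05), 7 members were lower at 10 mM (1.16% of all genes) and 19 at 20 mM (1.96% of all genes). The 7 were MCM6, MCM10, CDC45, GINS2, POLE2, UHRF1 and ASF1B. Their number at 10 mM depends on the rule: a pseudocount of 0.1 gave 15 (3.42% of all genes), limma-voom gave 17 (5.17%) and a 1.5-fold threshold gave 35 (4.62%). At 20 mM the 1.5-fold threshold gave 43 (6.68% of all genes). A pseudocount of 0.1 and limma-voom gave 26 each at that dose, where the share over all genes was not counted. The split of all genes moved with the scaling: with upper-quartile factors 2327 genes were lower and 2482 higher at 10 mM, against 2903 and 2010 without, and at 20 mM 2779 were lower and 3277 higher, against 3582 and 2544. The members called lower were 47 and 49 with these factors as well.

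**Figure D1:**
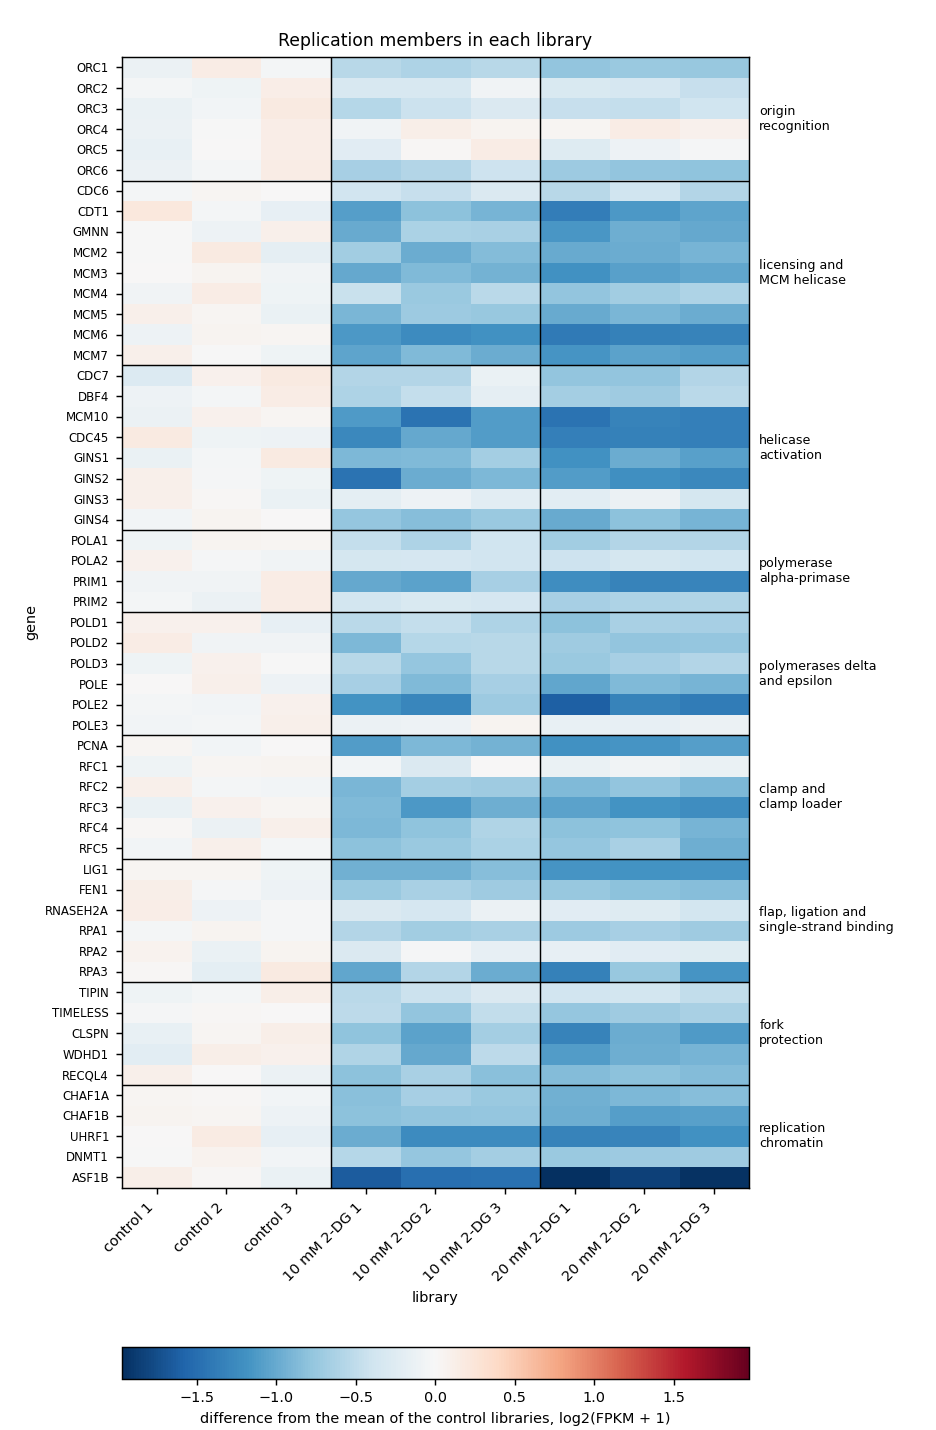
Color map of the 55 replication members (rows, by role) in the 9 libraries (columns). Color is the difference from the mean of the control libraries on log2(FPKM + 1), blue for lower; the treated columns are mostly blue, and the rows of ORC4, ORC5, GINS3, POLE3, RFC1 and RPA2 stay pale.

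Origin recognition fell in 3 of 6 genes at 10 mM and in 4 of 6 at 20 mM 2-DG. ORC1, the ATPase subunit whose level follows the cell cycle and the most abundant of the 6 in the control, had 7.14, 8.72 and 7.58 FPKM in the control libraries, 5, 4.75 and 5 at 10 mM and 4.12, 4.32 and 4.25 at 20 mM 2-DG. All 3 groups were separate, with the control on top and 20 mM lowest, and the log2 fold change at 20 mM was -0.75 ± 0.08 (SE, adjusted p = 8.15e-05). ORC6, the smallest subunit, had 6.16, 6.51 and 7.59 FPKM in the control libraries, 3.9, 4.19 and 4.83 at 10 mM and 3.72, 3.51 and 3.47 at 20 mM 2-DG. Its groups were again separate in the same order, with a change of -0.76 ± 0.10 (SE, adjusted p = 0.000229) at 20 mM. ORC3, a core subunit, fell at both doses, by 0.42 and 0.44 on the log2 scale. ORC2, its partner in the core, had a log2 fold change of -0.36 ± 0.10 (SE, adjusted p = 0.019) at 20 mM and of -0.24 (adjusted p = 0.108) at 10 mM, and its call at 20 mM was lost without control library 3 (adjusted p = 0.0697) and without 20 mM library 3 (adjusted p = 0.0724).

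ORC4 and ORC5, both core subunits of the same complex, did not pass. ORC4 had 2.51, 2.76 and 3.16 FPKM in the control libraries, 2.61, 3.1 and 2.94 at 10 mM and 2.89, 3.22 and 3.04 at 20 mM 2-DG. These groups overlapped, and the log2 fold change was 0.09 at 20 mM with a 95% confidence interval from -0.12 to 0.30. ORC4 was at 0.03 without control library 1 and at 0.16 without control library 3. ORC5 had 4.37, 5 and 5.55 FPKM in the control libraries, 4.1, 5.07 and 5.62 at 10 mM and 4, 4.54 and 4.83 at 20 mM 2-DG. Its libraries spread as widely within the control as between groups, and its log2 fold change of -0.13 at 20 mM had an interval from -0.39 to 0.13. ORC5 was at -0.20 without control library 1, -0.06 without control library 3 and -0.07 without 20 mM library 1. At 10 mM the sign was not fixed, with ORC5 at -0.02 and at 0.04 with upper-quartile factors.

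Licensing factors and the MCM ring fell in 9 of 9 genes at both doses, and the median of their log2 differences was -0.84 with 10 mM and -1.04 with 20 mM. MCM7, the ring subunit with the highest control level, had 111, 104 and 97.8 FPKM in the control libraries, 50.2, 56.8 and 52.6 at 10 mM and 45.8, 49.6 and 48.7 at 20 mM 2-DG. MCM6, the subunit with the largest fall, had 18, 20.3 and 20 FPKM in the control libraries, 8.32, 7.64 and 7.94 at 10 mM and 6.78, 7.06 and 7.18 at 20 mM 2-DG. For both genes the control libraries were about level with each other and far above the treated ones, and the 20 mM libraries lay below the 10 mM libraries without overlap. The log2 fold change at 20 mM was -1.10 ± 0.07 (SE, adjusted p = 2.48e-06) for MCM7 and -1.35 ± 0.07 (SE, adjusted p = 7.06e-07) for MCM6.

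The 6 ring subunits, which form the helicase in equal numbers, did not have equal RNA levels per length. In the control MCM7 and MCM3 had 104 ± 6.79 and 93.6 ± 4.47 (SD, n = 3) FPKM, whereas MCM5, MCM2, MCM6 and MCM4 had 20.5 ± 1.71, 19.9 ± 2.62, 19.4 ± 1.27 and 18.1 ± 1.76 (SD, n = 3) FPKM. The order among the last 4 is within their spread. These rankings also depend on the length used for each gene. In control library 1, MCM5 had 5680 reads and MCM2 3308, at 22 and 19.8 FPKM. At 20 mM 2-DG MCM7 and MCM3 had 48 ± 2 and 43.2 ± 2.58 (SD, n = 3) FPKM, still above the rest, MCM4, MCM5 and MCM2 lay at 10.8 ± 0.67, 10.1 ± 0.386 and 9.71 ± 0.313 (SD, n = 3) FPKM, and MCM6 was lowest at 7.01 ± 0.208 (SD, n = 3) FPKM. MCM6 had been level with MCM2 in the control: their ratio was 0.91, 0.897 and 1.15 in the control libraries and 0.714, 0.739 and 0.714 at 20 mM. The ratio of MCM3 to MCM2 overlapped between these groups, at 4.78, 4.32 and 5.11 in the control and 4.25, 4.6 and 4.51 at 20 mM 2-DG.

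Among the loading factors, CDC6, the ATPase that joins the origin complex to load the ring, fell least. It had 18, 19 and 18.6 FPKM in the control libraries, 14.1, 13.2 and 15 at 10 mM and 12.4, 13.9 and 12 at 20 mM 2-DG, with an estimate of -0.51 ± 0.07 (SE, adjusted p = 0.000398) for the log2 fold change at 20 mM. Each treated library was below each control library, but the doses overlapped. CDT1, which brings the ring to the origin, went from 22.3 ± 3.11 (SD, n = 3) FPKM without 2-DG to 11.2 ± 1.12 (SD, n = 3) with the lower dose and 9.27 ± 1.18 (SD, n = 3) with the higher, and geminin (GMNN), which binds CDT1 and blocks a new round of loading, from 22.7 ± 1.74 (SD, n = 3) FPKM to 13.1 ± 1.92 (SD, n = 3) with the lower dose and 10.5 ± 0.789 (SD, n = 3) with the higher. The ratio of CDT1 to GMNN overlapped between groups, at 1.13, 1.03 and 0.802 in the control and 0.828, 0.861 and 0.953 at 20 mM 2-DG.

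**Figure D2:**
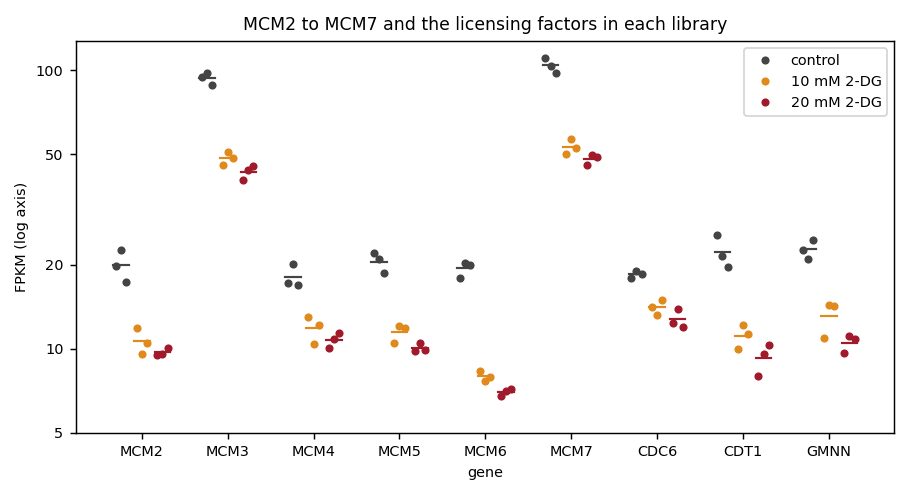
FPKM (log axis) of MCM2 to MCM7, CDC6, CDT1 and GMNN. Each point is a library and each bar the mean of 3 libraries in the control, 10 mM or 20 mM 2-DG; MCM3 and MCM7 sit above the other ring subunits in all groups, and all treated libraries lie below the control libraries of the same gene.

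Since these genes moved together, the promoter windows of the members were read. RefSeq windows (GRCh38.p14, 300 bases, from 250 before to 50 after the start) were matched by symbol for 48 of the 55 members; MCM4, MCM5, GINS4, POLD3, RPA2, RPA3 and RECQL4 had no entry. A gene with several windows was counted once, as holding a motif where any of its windows did. For 42 of the 48, the first 30 bases after a start were found, in the orientation printed, in a GENCODE transcript of the gene. The E2F site, searched as TTTCCCGC, TTTCGCGC, TTTGCCGC or TTTGGCGC on both strands, was found for 23 of 48 members (47.9%), for 3.99% of the 27305 gene names with a window and for 6.44% of the 11332 names that were also tested. The CCAAT box, searched as CCAAT on both strands, was found for 28 of 48 members (58.3%), for 39.7% of all names and for 42.9% of the tested names. The CHR element, searched as TTTGAA on both strands, was found for 3 of 48 (6.25%), for 18.2% of all names and for 13.7% of the tested names. Among members with a window, the median log2 fold change at 20 mM was -1.08 for the 23 with the E2F letters and -0.75 for the 25 without, -0.91 with and -0.76 without CCAAT, and -0.63 with and -0.84 without the CHR letters. These differences were not tested. These shares describe letters in a window and show no binding.

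The 160 bases before the start are printed for 7 members, picked after their values were seen among those with few bases in annotated exons. They are MCM6 (chr2:135876444-135876603, minus strand), GMNN (chr6:24775253-24775412, plus strand), CDC7 (chr1:91500952-91501111, plus strand), POLA1 (chrX:24693758-24693917, plus strand) and PCNA (chr20:5126623-5126782, minus strand), which hold the E2F letters, MCM10 (chr10:13161398-13161557, plus strand), which fell without them, and RFC1 (chr4:39366363-39366522, minus strand), a clamp loader subunit that did not pass and lacks them. GINS3, not printed, holds the letters GCGGGAAA 5 bases before its start and did not pass at 20 mM either. Each printed stretch reads 5′ to 3′ towards its gene, and capitals mark the E2F letters on either strand. By GENCODE release 29, the stretches of MCM6, GMNN and POLA1 hold 0 exon bases of their gene, those of CDC7, PCNA and MCM10 hold 4 each, and that of RFC1 holds 13. The starts used for MCM6 and POLA1 were not found in a GENCODE transcript, so their distances are from the RefSeq start alone.
MCM6: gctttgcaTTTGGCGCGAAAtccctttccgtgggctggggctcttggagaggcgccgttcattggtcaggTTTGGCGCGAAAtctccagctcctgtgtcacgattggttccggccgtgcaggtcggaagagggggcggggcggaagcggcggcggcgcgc
GMNN: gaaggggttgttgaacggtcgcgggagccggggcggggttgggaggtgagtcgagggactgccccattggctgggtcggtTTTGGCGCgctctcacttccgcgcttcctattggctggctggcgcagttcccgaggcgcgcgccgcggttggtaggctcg
CDC7: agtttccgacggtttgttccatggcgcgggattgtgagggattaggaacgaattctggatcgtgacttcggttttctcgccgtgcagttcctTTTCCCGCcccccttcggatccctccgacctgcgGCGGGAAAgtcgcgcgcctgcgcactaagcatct
POLA1: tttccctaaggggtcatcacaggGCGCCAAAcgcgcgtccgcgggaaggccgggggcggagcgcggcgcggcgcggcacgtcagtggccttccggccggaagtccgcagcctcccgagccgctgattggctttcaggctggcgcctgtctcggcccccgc
PCNA: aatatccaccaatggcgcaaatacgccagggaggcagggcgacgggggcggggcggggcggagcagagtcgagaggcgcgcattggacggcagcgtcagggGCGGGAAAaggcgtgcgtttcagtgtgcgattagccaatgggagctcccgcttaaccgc
MCM10: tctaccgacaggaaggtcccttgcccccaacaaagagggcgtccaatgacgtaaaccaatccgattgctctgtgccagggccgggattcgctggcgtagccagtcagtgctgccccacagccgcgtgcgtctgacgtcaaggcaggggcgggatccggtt
RFC1: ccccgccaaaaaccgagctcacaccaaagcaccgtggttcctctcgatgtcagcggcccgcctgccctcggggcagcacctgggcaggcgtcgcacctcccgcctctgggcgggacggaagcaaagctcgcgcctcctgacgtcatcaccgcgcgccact

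MCM6 holds the E2F letters 4 times. They form 2 copies of TTTGGCGCGAAA, in which TTTGGCGC on the printed strand overlaps by 4 bases GCGCGAAA, the other-strand form of TTTCGCGC, and the copies begin 152 and 90 bases before the start. CDC7 holds the letters in both orientations, 68 and 34 bases before the start, and GMNN, PCNA and POLA1 hold them once, at 80, 59 and 137 bases. In MCM10 the window holds CCAAT at 118 and 105 bases before the start.

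Helicase activation fell in 7 of 8 genes at 20 mM 2-DG. CDC45, which joins MCM and GINS in the active helicase, had the highest control level of these genes, with 21.7, 18 and 17.8 FPKM in the control libraries, 7.3, 8.95 and 8.39 at 10 mM and 6.86, 6.94 and 6.86 at 20 mM 2-DG. The 3 groups were separate, and the 20 mM libraries were nearly equal to each other. MCM10, which helps the helicase start to unwind, had 6.03, 7.06 and 6.85 FPKM in the control libraries, 2.5, 1.79 and 2.55 at 10 mM and 1.79, 2.05 and 2 at 20 mM 2-DG, with an estimate of -1.37 ± 0.11 (SE, adjusted p = 1.41e-05) for the log2 fold change at 20 mM. The doses overlapped below the control libraries, and on the ratio of means MCM10 stood at 29.3% of its control level. The kinase CDC7 and its activator DBF4, which phosphorylate the ring, had smaller changes, -0.71 ± 0.15 (SE, adjusted p = 0.00514) and -0.63 ± 0.12 (SE, adjusted p = 0.0027) at 20 mM.

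At 10 mM CDC7 did not pass (log2 fold change -0.43, adjusted p = 0.0589), but it did without control library 1 (adjusted p = 0.025) or 10 mM library 3 (adjusted p = 0.0189), with a replicate block (adjusted p = 0.0231), with limma-voom (adjusted p = 0.0261) and among genes with at least 10 reads in every library (adjusted p = 0.0415). DBF4 passed at 10 mM (-0.42, adjusted p = 0.0254) and lost the call without control library 2 (adjusted p = 0.0506) or 3 (adjusted p = 0.0883), or 10 mM library 1 (adjusted p = 0.0711) or 2 (adjusted p = 0.0578), with only the control and 10 mM libraries fitted (adjusted p = 0.0562) and with every gene above 0 tested (adjusted p = 0.0658).

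GINS, the 4-subunit ring of the active helicase, was uneven. GINS2 went from 4.88 ± 0.406 (SD, n = 3) FPKM without 2-DG to 1.75 ± 0.546 (SD, n = 3) with the lower dose and 1.57 ± 0.152 (SD, n = 3) with the higher, GINS1 from 2.65 ± 0.406 (SD, n = 3) to 1.08 ± 0.174 (SD, n = 3) with the lower dose and 0.727 ± 0.129 (SD, n = 3) with the higher, and GINS4 from 2.79 ± 0.141 (SD, n = 3) to 1.21 ± 0.0871 (SD, n = 3) with the lower dose and 1.02 ± 0.14 (SD, n = 3) with the higher. GINS3, the remaining subunit, had 2, 1.84 and 1.55 FPKM in the control libraries, 1.44, 1.6 and 1.42 at 10 mM and 1.43, 1.57 and 1.2 at 20 mM 2-DG. Its groups overlapped, and it did not pass at 20 mM (log2 fold change -0.22, adjusted p = 0.0982), although its 95% confidence interval, from -0.43 to -0.01 and not adjusted for the number of genes, leaves out 0. The ratio of GINS2 to GINS3 was 2.66, 2.61 and 2.91 in the control libraries and 1.21, 0.972 and 1.2 at 20 mM 2-DG, a pair picked after the values were seen.

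Polymerase alpha-primase lays the RNA-DNA primer, and its 4 genes fell at both doses. PRIM1, the catalytic primase subunit, had 3.03, 3.03 and 3.68 FPKM in the control libraries, 1.1, 1.03 and 1.69 at 10 mM and 0.803, 0.696 and 0.71 at 20 mM 2-DG. The groups were separate in dose order. PRIM1 stood at 22.7% of its control mean at 20 mM, the lowest share of the 55 members, and its log2 fold change was -1.29 ± 0.12 (SE, adjusted p = 3.22e-05). PRIM2, the large primase subunit with the highest control level of these genes, had 4.78, 4.48 and 5.59 FPKM in the control libraries, 3.6, 3.83 and 3.72 at 10 mM and 2.76, 2.88 and 2.95 at 20 mM 2-DG, with an estimate of -0.62 ± 0.09 (SE, adjusted p = 0.000461) for the log2 fold change at 20 mM. Its call at 10 mM (-0.33, adjusted p = 0.0177) was lost without control library 3 (adjusted p = 0.0601) and with only the control and 10 mM libraries fitted (adjusted p = 0.0525). POLA2, the accessory subunit of the polymerase, had 1.12, 0.97 and 0.895 FPKM in the control libraries, 0.567, 0.58 and 0.533 at 10 mM and 0.499, 0.573 and 0.516 at 20 mM 2-DG, and its doses overlapped below the control. POLA1, the catalytic subunit, fell from 1.32 ± 0.122 (SD, n = 3) FPKM to 0.516 ± 0.0706 (SD, n = 3) at 20 mM. POLA2 shares 35.1% of its exon bases with AP000944.2 on the same strand and PRIM1 14.9% with AC117378.1, so reads there could be counted for either gene.

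The polymerases that extend the strands fell in 5 of 6 genes at both doses. POLE2, the second subunit of the leading-strand polymerase epsilon, had 6.41, 6.38 and 7.1 FPKM in the control libraries, 2.37, 2.11 and 3.65 at 10 mM and 1.51, 2.06 and 1.92 at 20 mM 2-DG. The control libraries stood apart from the treated ones, and the log2 fold change at 20 mM was -1.43 ± 0.15 (SE, adjusted p = 6.2e-05). POLD2, a subunit of the lagging-strand polymerase delta and the most abundant of these genes in the control, had 63.5, 54.6 and 54.5 FPKM in the control libraries, 30.5, 38.5 and 38.8 at 10 mM and 34.9, 32.9 and 33.4 at 20 mM 2-DG, with an estimate of -0.75 ± 0.10 (SE, adjusted p = 0.000258) for the log2 fold change at 20 mM. The catalytic subunits POLE and POLD1 went from 8.7 ± 0.658 to 4.06 ± 0.284 (SD, n = 3) FPKM and from 20.1 ± 2.02 to 12 ± 0.787 (SD, n = 3) FPKM at 20 mM, and POLD3, an accessory subunit of delta, from 5.77 ± 0.411 to 3.3 ± 0.236 (SD, n = 3) FPKM.

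POLE3, a small histone-fold subunit of polymerase epsilon that also belongs to a chromatin remodelling complex, did not pass. It had 30.5, 30.9 and 34.4 FPKM in the control libraries, 29.3, 29.7 and 33.2 at 10 mM and 28.8, 28.5 and 29.2 at 20 mM 2-DG. The 20 mM libraries lay just below the others, and the log2 fold change was -0.14 (adjusted p = 0.131), with a 95% confidence interval from -0.29 to 0.01. POLE3 was at -0.09 without control library 3. The ratio of POLE2 to POLE3 was 0.21, 0.207 and 0.207 in the control libraries, 0.0809, 0.0711 and 0.11 at 10 mM and 0.0523, 0.0723 and 0.0658 at 20 mM 2-DG. By contrast, the ratio of POLD1 to POLD2 overlapped, at 0.336, 0.389 and 0.326 in the control and 0.316, 0.379 and 0.369 at 20 mM.

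The clamp PCNA, which holds polymerases on DNA, had the highest control level of the 55 members, with 155, 145 and 151 FPKM in the control libraries, 69.1, 81 and 78.5 at 10 mM and 65.1, 66.4 and 70.1 at 20 mM 2-DG. The control libraries were far above the treated ones, and the log2 fold change was -0.97 ± 0.07 (SE, adjusted p = 9.96e-06) at 10 mM and -1.15 ± 0.07 (SE, adjusted p = 2.08e-06) at 20 mM. RFC3, a small subunit of the loader that opens the clamp, had 6.53, 7.69 and 7.48 FPKM in the control libraries, 3.48, 2.75 and 3.22 at 10 mM and 2.94, 2.65 and 2.51 at 20 mM 2-DG, with an estimate of -1.15 ± 0.10 (SE, adjusted p = 1.8e-05) for the log2 fold change at 20 mM. RFC2, RFC4 and RFC5, the other small subunits, had log2 fold changes of -0.84, -0.84 and -0.79 at 20 mM and each fell at both doses.

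RFC1, the large subunit that is found in the PCNA loader alone, did not pass at either dose. It had 6.75, 7.47 and 7.51 FPKM in the control libraries, 6.96, 5.73 and 7.25 at 10 mM and 6.55, 6.88 and 6.52 at 20 mM 2-DG. The groups overlapped, and the log2 fold change at 20 mM was -0.11 (adjusted p = 0.373), with a 95% confidence interval from -0.30 to 0.09. RFC3 and RFC1 were level per length in the control, at a ratio of 0.967, 1.03 and 0.995, and the ratio was 0.499, 0.48 and 0.443 at 10 mM and 0.448, 0.385 and 0.385 at 20 mM 2-DG. Being level in the control depends on the lengths used, since control library 1 had 663 reads of RFC3 and 1610 of RFC1.

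Among the genes of flap processing, ligation and single-strand binding, 5 of 6 fell at both doses. FEN1, the nuclease that trims the flaps of lagging-strand fragments, had 77.4, 70.2 and 66.3 FPKM in the control libraries, 42.5, 45.2 and 43.2 at 10 mM and 41.9, 40.2 and 39.2 at 20 mM 2-DG. LIG1, which joins those fragments, had 12, 12 and 10.9 FPKM in the control libraries, 5.54, 5.55 and 6.06 at 10 mM and 4.63, 4.56 and 4.65 at 20 mM 2-DG. Both had separate groups in dose order, and LIG1 had a change of -1.17 ± 0.07 (SE, adjusted p = 1.82e-06) at 20 mM. RPA1 and RPA3, subunits of the protein that coats single-stranded DNA, went from 42.2 ± 1.3 to 25.7 ± 0.507 (SD, n = 3) FPKM and from 8.17 ± 1.17 to 3.37 ± 0.941 (SD, n = 3) FPKM at 20 mM.

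RPA2, the remaining subunit of that protein, had 36.7, 31.9 and 36.2 FPKM in the control libraries, 28.6, 34.2 and 31.2 at 10 mM and 31, 29.8 and 29.5 at 20 mM 2-DG. The 20 mM libraries lay below the control and within the 10 mM range, and the log2 fold change of -0.21 did not pass (adjusted p = 0.0607), with an unadjusted 95% confidence interval from -0.38 to -0.03. This call is close to the threshold: it passed without control library 2 (adjusted p = 0.0303), without 10 mM library 1 (adjusted p = 0.0349) or 2 (adjusted p = 0.0324), and with only the control and 20 mM libraries fitted (adjusted p = 0.0304). The ratio of RPA1 to RPA2 was 1.13, 1.37 and 1.15 in the control and 0.819, 0.884 and 0.862 at 20 mM.

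RNASEH2A, the catalytic subunit of the nuclease that removes ribonucleotides from DNA, is uncertain. Its reads summed to 70 without 2-DG, 25 at 10 mM and 19 at 20 mM 2-DG, and the log2 ratio of summed reads at 20 mM was -1.84, with an exact binomial 95% interval from -2.66 to -1.10 that covers counting error only. On the log2(FPKM + 1) scale its change of -0.28 at 20 mM passed (adjusted p = 0.0135) and did not without 20 mM library 3 (adjusted p = 0.0526) or with every gene above 0 tested (adjusted p = 0.0504). At 10 mM (-0.24, adjusted p = 0.0291) the call was lost without control library 1 (adjusted p = 0.0935) or 3 (adjusted p = 0.0596), or 10 mM library 1 (adjusted p = 0.0753) or 2 (adjusted p = 0.0847), with only the control and 10 mM libraries fitted (adjusted p = 0.0547) and with every gene above 0 tested (adjusted p = 0.0939). RNASEH2A shares 30.8% of its exon bases with THSD8 on the same strand, which was at 0.0255 FPKM on average. Whether the authors' counting dropped reads shared by both genes is not known, so its FPKM may not measure the whole transcript.

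The fork protection genes fell in 5 of 5 at both doses. RECQL4, a helicase of the RecQ family with the highest control level of these, had 38.6, 36.4 and 33.4 FPKM in the control libraries, 20.2, 22.7 and 20 at 10 mM and 19.5, 20.1 and 19.5 at 20 mM 2-DG. CLSPN, the adaptor that carries the checkpoint signal at the fork, had 4.88, 5.7 and 6.06 FPKM in the control libraries, 2.77, 2.14 and 3.12 at 10 mM and 1.63, 2.32 and 2 at 20 mM 2-DG. In both genes the control was well separated from the treated libraries while the doses overlapped, and the log2 fold change of CLSPN at 20 mM was -1.13 ± 0.13 (SE, adjusted p = 0.000128). TIPIN, the partner of TIMELESS in the fork protection complex, changed least, with 4.54, 4.75 and 5.4 FPKM in the control libraries, 3.05, 3.41 and 3.83 at 10 mM and 3.52, 3.6 and 3.19 at 20 mM 2-DG, and its log2 fold change was -0.41 at each dose, with overlapping doses below the control. TIMELESS itself was at -0.70 at 20 mM, and WDHD1, which links polymerase alpha to the helicase, went down to 42.8% of its control mean. TIPIN shares 21% of its exon bases with the pseudogene RPL9P25, which was at 0 in these libraries.

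Replication chromatin held the largest fall of the 55 members on this scale. ASF1B, a histone chaperone that hands new histones H3 and H4 on, had 43.6, 40.8 and 36.5 FPKM in the control libraries, 12.2, 13.6 and 13.9 at 10 mM and 9.5, 10.6 and 9.72 at 20 mM 2-DG. The groups were far apart, and the log2 fold change was -1.53 ± 0.08 (SE, adjusted p = 2.16e-06) at 10 mM and -1.92 ± 0.08 (SE, adjusted p = 3.24e-07) at 20 mM. DNMT1, which copies DNA methylation to the new strand, changed least in this group, with 23.4, 24.9 and 22.7 FPKM in the control libraries, 15.7, 13.5 and 14.5 at 10 mM and 13.8, 14.1 and 14.2 at 20 mM 2-DG, with an estimate of -0.72 ± 0.07 (SE, adjusted p = 3.29e-05) for the log2 fold change at 20 mM. UHRF1, which brings DNMT1 to hemimethylated sites, went from 24.9 ± 2.91 to 9.67 ± 0.461 (SD, n = 3) FPKM, and CHAF1A and CHAF1B, subunits of the chromatin assembly factor that PCNA recruits, from 22.5 ± 0.818 to 11.7 ± 0.451 (SD, n = 3) FPKM and from 4.54 ± 0.33 to 1.7 ± 0.123 (SD, n = 3) FPKM.

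**Figure D3:**
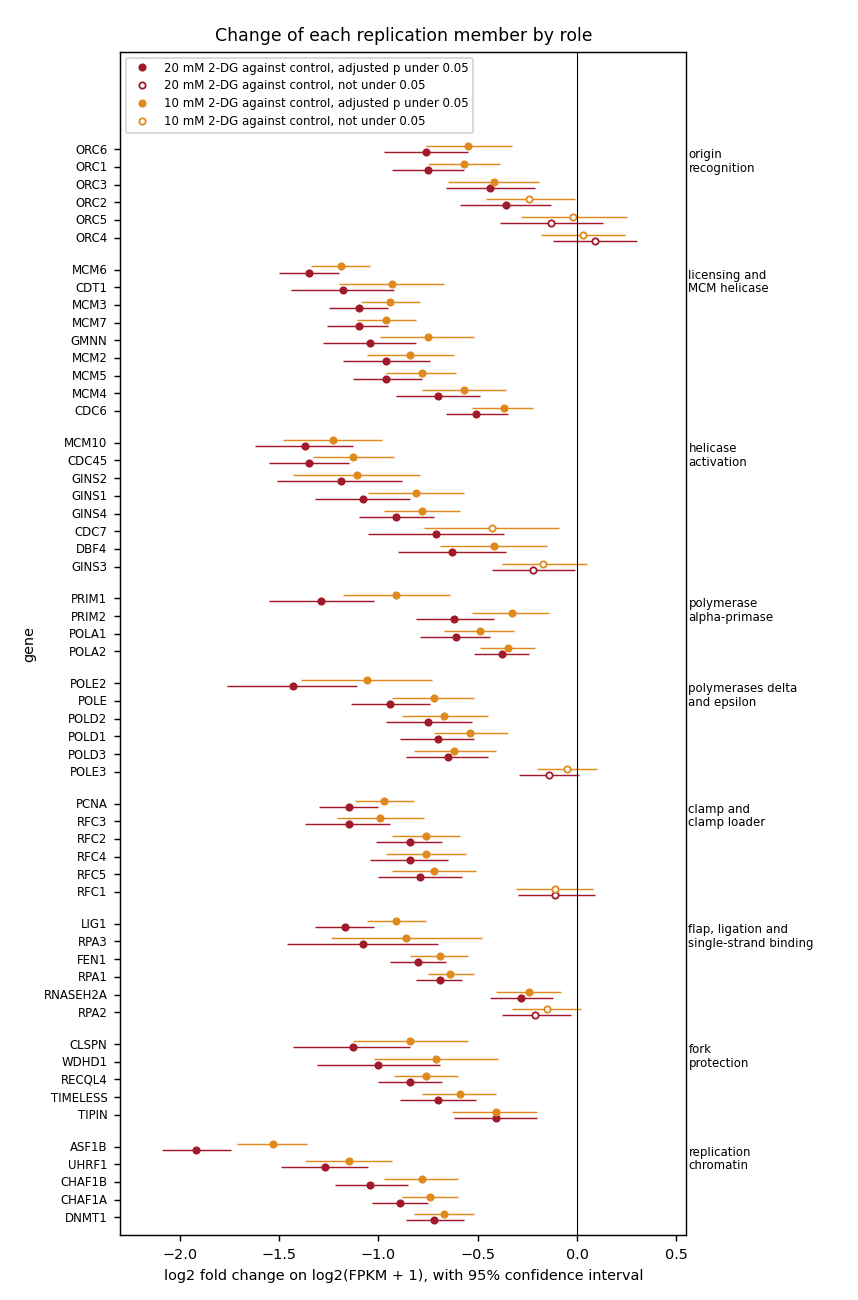
Log2 fold change on log2(FPKM + 1) with its 95% confidence interval for each member, by role, for 10 mM and 20 mM 2-DG against the same 3 control libraries. Filled points have a limma adjusted p under 0.05; the open points at 20 mM are ORC4, ORC5, GINS3, POLE3, RFC1 and RPA2.

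The 6 members that did not pass at 20 mM were spread over 5 complexes in which other subunits fell. A p that misses the threshold does not show that a gene was the same in both groups. Ratios between subunits were taken within each library, for pairs picked after the values were seen and with no test. Setting a gene that fell over one that did not pass makes a lower ratio likely by choice, so the ratios only describe the size of the gap. The ratios ORC1 to ORC4, ORC6 to ORC5, GINS2 to GINS3, POLE2 to POLE3, RFC3 to RFC1 and RPA1 to RPA2 were lower in all 3 libraries at 20 mM than in all 3 control libraries. Such a ratio does not depend on the library's scaling. ORC1 to ORC4, for example, was 2.85, 3.16 and 2.4 in the control and 1.42, 1.34 and 1.4 at 20 mM 2-DG. Pairs in which both genes fell could be lower in all 20 mM libraries as well. The mean ratio of PRIM1 to PRIM2 was 0.656 in the control and 0.257 at 20 mM, and that of MCM6 to MCM2 was 0.987 and 0.722. Other pairs overlapped with the control: CDT1 to GMNN did so at both doses. CHAF1A to DNMT1 was 0.987, 0.914 and 0.952 in the control and overlapped at 10 mM, with 0.776, 1.03 and 0.905. At 20 mM CHAF1A to DNMT1 lay lower, at 0.811, 0.835 and 0.855.

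**Figure D4:**
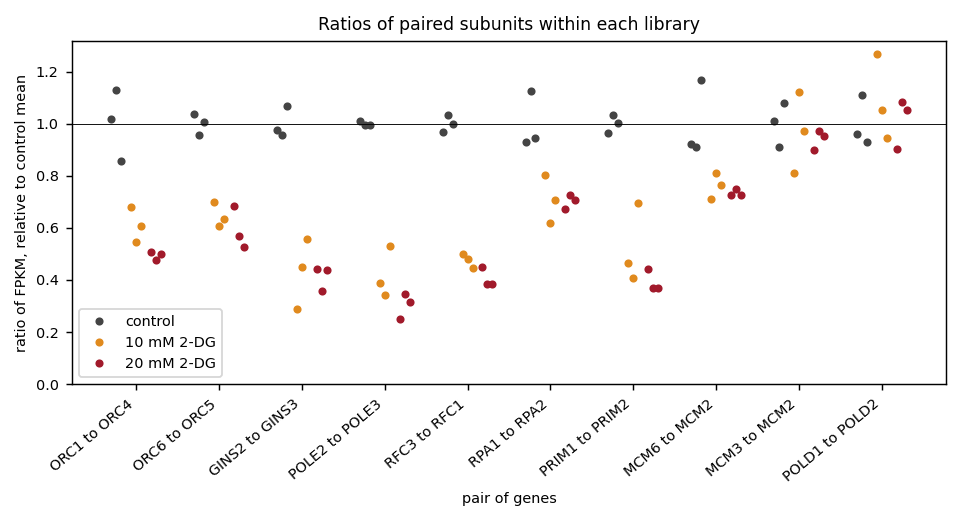
Ratio of FPKM of 10 pairs of genes within each library, divided by the mean ratio of the control libraries, for the control, 10 mM and 20 mM 2-DG. Each point is a library; the pairs MCM3 to MCM2 and POLD1 to POLD2 overlap between groups, and the rest lie lower in the treated libraries.

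Between the doses, 52 of 55 members had a lower estimate at 20 mM than at 10 mM 2-DG, with a median log2 difference of -0.13 beside -0.01 over all genes. No difference passed: limma called 0 of 55 members at an adjusted p under 0.05 (0% of all genes) and limma-voom called 0 lower (0% of all genes). At an unadjusted p under 0.05, 15 members were lower, where 4.13% of all genes were, and 0 higher, where 2.75% were. For 17 members the 20 mM libraries lay below the 10 mM libraries without overlap, as for 7.14% of all genes. ASF1B had the smallest p, with a log2 difference of -0.38 (unadjusted p = 0.00073, adjusted p = 0.247 from limma), followed by LIG1 at -0.26 (unadjusted p = 0.0035, adjusted p = 0.382 from limma). PRIM1 and PRIM2, the primase subunits, had differences of -0.38 and -0.29. These are differences that limma could not tell from the spread between libraries once all genes were counted.

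Other replication genes outside the 55 were counted as well, and the difference between lists was not tested. Of 34 further replication factors, 24 fell and 2 rose at 20 mM, where 21.6% of all genes were lower and 15.4% higher. Their median log2 fold change was -0.42, beside -0.02 over all genes. TOP2A, the topoisomerase that separates the finished chromosomes, had the lowest value at -2.02 (48 ± 6.64 to 11 ± 0.802 FPKM, SD, n = 3), and TICRR, DSCC1 and HELLS fell from 2.5 ± 0.0886, 5.09 ± 0.523 and 2.48 ± 0.19 FPKM to 0.675 ± 0.153, 1.85 ± 0.407 and 0.859 ± 0.0637 FPKM (SD, n = 3). The 2 that rose were LRWD1, which binds the origin complex on chromatin (0.41, adjusted p = 0.00418), and CIZ1, a partner of p21 in the start of replication (0.22, adjusted p = 0.00865). POLE4, the histone-fold partner of POLE3, was at 0.19 on the log2 scale (adjusted p = 0.222), and ASF1A, the paralog of ASF1B, 0.02 (adjusted p = 0.85).

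Transcripts of the genes listed for deoxynucleotide supply were also lower, with 10 of 11 genes lower and 0 higher at either dose. Of all genes, 17.5% were lower and 12.1% higher at 10 mM, and 21.6% were lower and 15.4% higher at 20 mM. The log2 fold changes of the list ran from -2.25 to -0.18 at 20 mM. Its median was -0.89 at 10 mM, beside -0.01 over all genes. The deoxynucleotides themselves were not measured. RRM2, the subunit of ribonucleotide reductase that is made in S phase, went from 16.3 ± 0.0755 to 2.65 ± 0.366 (SD, n = 3) FPKM, TK1 from 88.4 ± 10.9 to 21.9 ± 1.1 (SD, n = 3) FPKM and TYMS from 15.3 ± 1.03 to 3.7 ± 0.567 (SD, n = 3) FPKM. RRM2B, the reductase subunit that p53 induces, was at -0.18 on the log2 scale (adjusted p = 0.303).

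Of 16 genes listed for E2F and RB, 9 fell and 1 rose at 20 mM (median log2 fold change -0.46), where 21.6% of all genes were lower and 15.4% higher. This list also holds TFDP1, TFDP2, LIN9, LIN52 and LIN54, which belong to neither family. E2F1, an activator of replication genes, went from 38.9 ± 2.55 to 15.9 ± 0.709 (SD, n = 3) FPKM, E2F2, a related activator, from 1.55 ± 0.079 to 0.199 ± 0.00153 (SD, n = 3) FPKM and the repressor E2F8 from 4.14 ± 0.336 to 0.627 ± 0.0895 (SD, n = 3) FPKM. E2F7, another repressor, rose from 13.5 ± 1.97 to 25.2 ± 1.55 FPKM (SD, n = 3; log2 fold change 0.87, adjusted p = 0.00469). E2F4, which acts with RBL1 and RBL2 in resting cells, was at -0.04 on the log2 scale (adjusted p = 0.588). Of 18 tested genes of the G1 to S control (CDKN2B, at 0, was not tested), 14 fell and 3 rose (median -0.72), beside the same shares of all genes. CCNA2 went from 33.4 ± 2.54 to 6.9 ± 0.488 (SD, n = 3) FPKM. The 3 that rose were CDKN1A, which encodes the inhibitor p21 and binds PCNA (44.8 ± 3 to 73.1 ± 5.83 FPKM, SD, n = 3), CCND2 and CDK6. The other tested inhibitors on the list, CDKN2C, CDKN2D, CDKN1C and CDKN1B, fell, with log2 fold changes of -2.12, -1.15, -0.40 and -0.27.

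DNA polymerases of other pathways are given for comparison, beside 21.6% of all genes lower and 15.4% higher at 20 mM. Of 11 tested repair and translesion polymerase genes (POLN was not tested), 5 fell and 1, POLI, rose at 20 mM, with a median log2 fold change of -0.19. Of 10 genes that copy mitochondrial DNA, MGME1 fell, TOP1MT rose and 8 did not pass, and the median was 0.11; POLG, the mitochondrial polymerase, had 12.5 ± 0.672 (SD, n = 3) FPKM without 2-DG and 14.3 ± 0.695 (SD, n = 3) at 20 mM. Of 34 mitosis genes, 34 fell and 0 rose, with a median of -1.58, against -0.84 for the 55 replication members. The difference between lists was not tested.

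**Figure D5:**
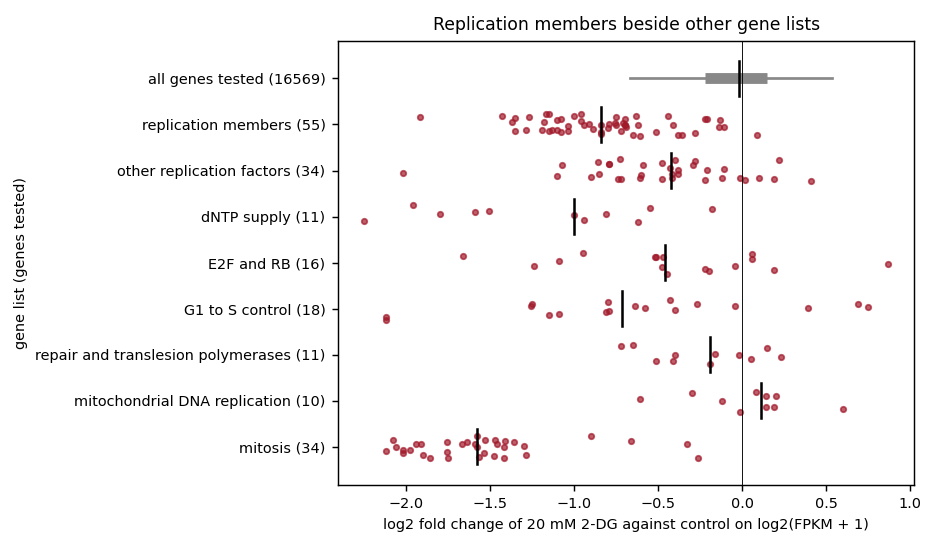
Log2 fold change of 20 mM 2-DG against control on log2(FPKM + 1) for the genes of each list, with the number of genes tested in brackets. Each point is a gene and each black bar a median; for all genes tested the thick bar spans the middle 50% and the thin line the middle 90%. The members' median is -0.84 and that of the mitosis list -1.58.

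The strand setting of the authors' counting is not given, so it is not known whether reads from genes overlapping on opposite strands were told apart. MCM2 shares 22.7% of its exon bases with the antisense gene AC023593.1, GINS4 21.2% with AC009630.2 and GINS3 10.9% with AC009118.2, which were at 0.00704, 0.0425 and 0.00548 FPKM on average. Opposite-strand neighbors with higher levels share less: MCM7 shares 8.94% with AP4M1 (2.65 FPKM), FEN1 6.7% with TMEM258 (14.1 FPKM) and RFC5 5.72% with WSB2 (34.1 FPKM). Processed pseudogenes named for PCNA, RPA2, RFC3, RFC5, FEN1, DBF4 and POLD2 had mean levels between 0 and 0.058 FPKM.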

How the data were processed

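FPKM values were deposited by the authors, 1 file per library, for 61552 genes, of which 20495 have no name. The submitters' processing notes name the builds GRCh38 and hg38; the aligner, counting tool, annotation and strand setting are not given in the sources used here. Lengths and library totals that turn the FPKM values into whole reads (within 0.005) were found for 32804 of the 32806 genes above 0, for 49.8% with a GENCODE release 29 length and otherwise with a searched length of up to 60000 bases (13 of the 55 members had a GENCODE length); these are not the authors' counts. Tested genes (16569) needed 15 reads or more summed over libraries and, in 3 or more libraries, 10 or more once scaled to the median depth. limma 3.58.1 in R 4.3.3 was fitted to log2(FPKM + 1) over all 9 libraries with a trend and no replicate block, and p-values were adjusted by Benjamini-Hochberg; the steps were tested on simulated data. Tables were made with Python 3.11.15, pandas 2.3.3 and SciPy 1.17.1. The members and lists were chosen with earlier results of these data known. Named with each library's value, per role, were the members with the lowest and the highest log2 fold change at 20 mM and the highest control level, and those that did not pass at 20 mM or went against their role; further genes were named after their values were seen. Promoter windows are from RefSeq (GRCh38.p14). Alternatives varied the pseudocount, filter, scaling, fit, threshold and libraries. Replicate libraries had Pearson correlations from 0.9889 to 0.9961 and differed beyond sampling noise, by a chi-square per gene of 14.1 to 21.5 between control libraries, 26.4 to 56.6 at 10 mM (56.6 for libraries 1 and 2) and 4.66 to 6.56 at 20 mM.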

Additional observations from a re-analysis of the deposited data

How the results depend on the processing

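The number of members called lower by limma's adjusted p kept within 1.5 times under each alternative. Leaving out 1 library gave 44 to 48 at 10 mM and 47 to 50 at 20 mM 2-DG, and 0 between the doses. The number lower under the DEG rule at 10 mM was 7, and 15 with a pseudocount of 0.1, 17 with limma-voom on recovered reads and 35 with a 1.5-fold threshold. At 20 mM it was 19, and 26, 26 and 43 in turn. The pseudocount understates low genes by construction. The members' median log2 fold change at 10 mM moved from -0.72 to -0.79 with a pseudocount of 0.1, -0.80 with limma-voom and -0.66 with upper-quartile factors. At 20 mM it moved from -0.84 to -0.90, -0.92 and -0.75 in turn, to -0.79 with median-ratio factors, and lay between -0.86 and -0.80 without 1 library. The cause was not tested. The replicate block, with the library number as a term, gave 48 lower at 10 mM, 49 at 20 mM and 0 between the doses. Deviations of libraries with the same number had correlations from -0.406 to 0.293, the highest for control 3 with 10 mM library 3, so the numbers do not pair all libraries. Higher ones joined different numbers, control 1 with 10 mM library 2 (0.521) and control 2 with 10 mM library 1 (0.488). What these libraries share was not tested, and no pairing other than by number was fitted. Signs turned for 3 genes near 0 at 10 mM. ORC4 (0.03) was at -0.03 without control library 1 and -0.01 without 10 mM library 2. ORC5 (-0.02) was at 0.02 with median-ratio and 0.04 with upper-quartile factors, 0.05 without control library 3 and 0.09 without 10 mM library 1, but -0.10 without 10 mM library 3. POLE3 (-0.05) was at 0.01 with upper-quartile factors and 0.00 without control library 3, but -0.11 without 10 mM library 3. RNASEH2A had 2 reads in its lowest library; whether depth or the counting limits it was not tested.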
